A study of Mus musculus with 14 samples.

Results

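The brain endothelial and mural cell genes examined here are 38 genes that mark the wall of cerebral vessels, chosen by symbol from the 36118 genes of the deposited table. Of these, 29 mark endothelial cells and 9 mark mural cells, 6 of the latter pericytes and 3 smooth muscle. All 38 were found and all 38 passed the filter on low counts that left 16637 genes for testing. Hippocampal RNA came from 14 C57/BL6 mice, 1 library per mouse, in 4 groups of littermates from heterozygous matings. They were 4 wild-type mice in room air (WT-RA), 4 wild-type mice in hyperoxia (WT-O2), 3 GSDMD knockout mice in room air (KO-RA) and 3 knockout mice in hyperoxia (KO-O2). Hyperoxia was 85% O2 from postnatal day 1 to day 14, and tissue was collected on day 15. The knockout is global, so that vessels and all other cells carry the same allele, which per the study's methods is a small deletion in an exon of Gsdmd. GSDMD is the gasdermin that forms membrane pores in pyroptosis. The comparisons address what hyperoxia does in each genotype, whether its effect differs between genotypes, and how the genotypes differ in each exposure.

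Brain endothelial cells form the blood-brain barrier. Tight junctions of claudin-5 and occludin, anchored by scaffold proteins such as ZO-1, close the space between the cells, while transporters carry glucose, lipids and hormones across them and efflux pumps return drugs to the blood. Endothelial PDGF-B recruits pericytes through their receptor PDGFRB, and pericytes in turn keep the barrier closed. Smooth muscle cells ring the arteries and arterioles, and their contractile proteins set vessel calibre. Hyperoxia in the newborn is known to constrict and thin out immature vessels, which is the background for looking at these genes.

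The libraries were of similar depth, with totals of 27272270 to 28257496 estimated counts. The 38 genes had between 91 and 6650 counts in a library. Gsdmd, the targeted gene, had 41 to 63 counts in WT libraries and 22 to 42 in KO libraries, and counts summed over a gene do not show the deletion. Mouse GSD408 is hyperoxic by its title and by its column name but room air by its treatment field. It was taken as WT-O2, and calls of the 38 genes that change when it is placed in room air are given as such. WT mice are numbered GSD398 to GSD408 and KO mice GSD489 to GSD496, so that genotype cannot be told apart from that range of mouse numbers. Markers of brain regions differed between genotypes in these libraries labelled hippocampus. Levels are given in CPM, the count scaled to library size. The summed level of 6 markers of hippocampal neurons was 583 to 939 CPM in WT mice and 1191 to 1498 CPM in KO mice, and that of 9 markers of striatal projection neurons was 325 to 757 CPM in WT mice and 143 to 237 CPM in KO mice. The 10 markers of choroid plexus ran from 41.6 to 3463 CPM over the KO mice alone. The part of these differences in tissue makeup in the genotype values given here was not tested. In bulk RNA, fewer vessel cells and less RNA per vessel cell cannot be told apart.

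One library stood apart for the vascular genes. In KO-O2 mouse GSD494, 37 of the 38 genes had the lowest value of the 3 KO-O2 mice, against 37.8% of all tested genes. These were 28 of 29 endothelial and 9 of 9 mural genes. In KO-O2 mouse GSD495, 25 of the 38 were the highest of the group, against 30.2% of all tested genes. Relative to each gene's mean over the 14 mice, the median endothelial gene was -0.22 on the log2 scale in GSD494 and 0.18 in GSD495, and the median mural gene was -0.33 and 0.19. The median of all tested genes was -0.01 in both. The spread among KO-O2 mice was thus shared by endothelial and mural genes. The median of all tested genes is held near its mean by the scaling, so that it cannot show whether genes of other cell types shared this spread. Among WT-RA mice, GSD398 was highest for 23 of the 38 genes and GSD400 lowest for 20, against 29.8% and 29.4% of all tested genes. Most values of the 38 genes that rest on KO-O2 are therefore also given without GSD494.

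**Figure D1:**
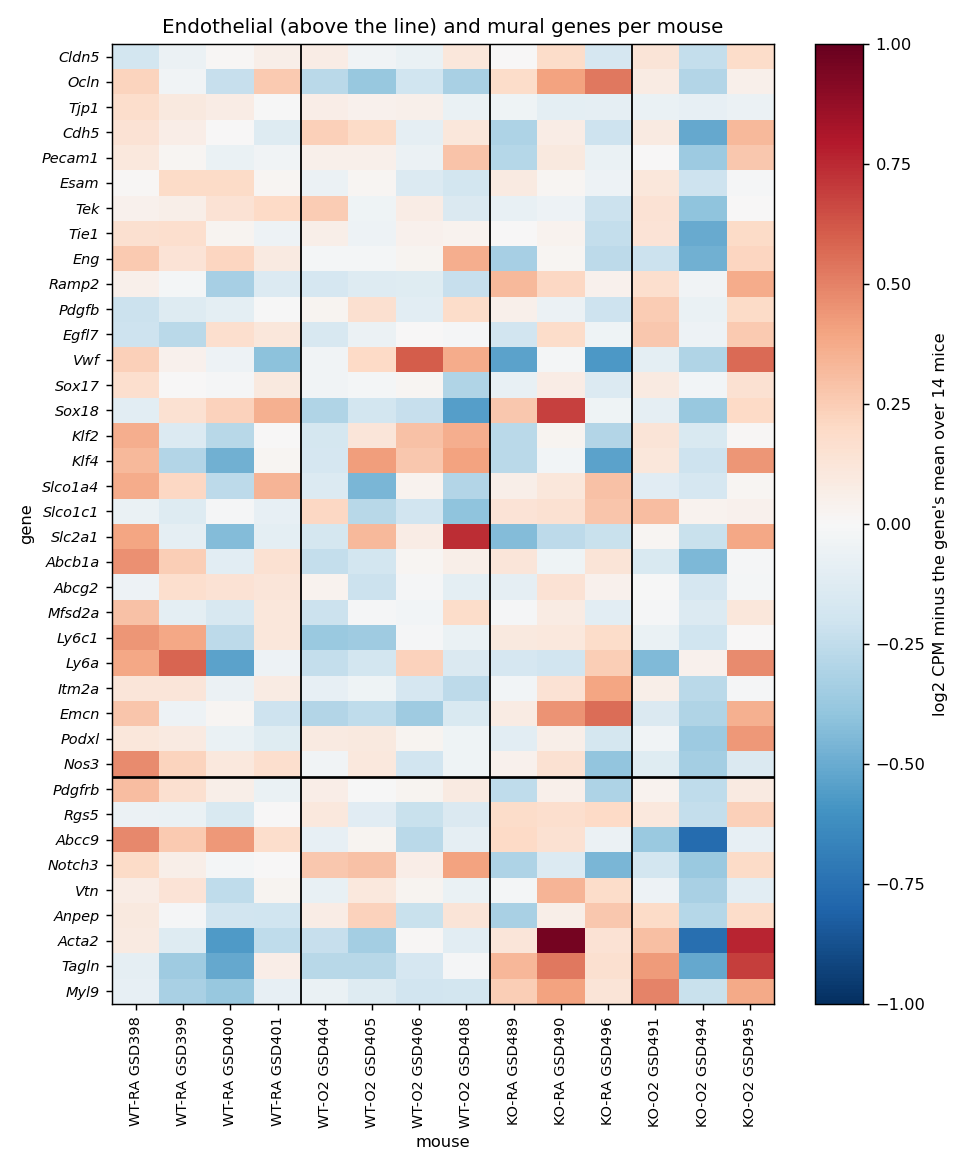
Heat map of the 38 genes (rows, endothelial above the thick line and mural below) in the 14 mice (columns, by group). Colour is log2 CPM minus the gene's mean over the 14 mice, and the column of KO-O2 mouse GSD494 is the bluest, with 37 genes at the lowest value of their group.

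Between genes, levels were compared per length, as CPM per kilobase of exon. In WT-RA mice the highest of the 38 was the pericyte gene Rgs5, a regulator of G protein signalling, at 43.2 CPM per kilobase. Vtn, which encodes the matrix protein vitronectin, was at 29.9 and Cldn5, the main claudin of the barrier, at 28.7 CPM per kilobase. The thyroid hormone transporter gene Slco1c1 was at 25.8 and the glucose transporter gene Slc2a1 at 24.1. At the low end were Anpep at 1.61, Abcc9 at 1.85 and Sox17 at 2.02 CPM per kilobase, so that 2 of the 3 lowest are mural. Several of the genes are also made outside vessels (Slco1c1 and Slc2a1 in astrocytes, Tjp1 and Pdgfb in neurons). No gene of the endothelial, mural and other cell lists used here was at 0 in every library.

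Hyperoxia in WT mice moved 0 of the 38 genes past the threshold. A gene is called where its log2 fold change is 0.322 or more in size, its p is under 0.05 and its q is under 0.1, where q is the Benjamini-Hochberg adjusted p of edgeR's quasi-likelihood test over all tested genes. Of all genes, 0.643% passed. By DESeq2, 1 of the 38 was called, the pericyte gene Abcc9, where it called 310 of all 16637 tested genes. Without GSD494 edgeR called Abcc9 as well, against 0.629% of all genes in that fit. At an unadjusted p below 0.05 stood 9 of the 38 genes, 8 endothelial and 1 mural, and all 9 were lower in WT-O2. That is 23.7% of the 38, and over all tested genes the share was 12.2%, of which 946 were higher and 1081 lower. The 9 genes were Abcc9, Sox18, Slco1a4, Ly6c1, Ocln, Nos3, Esam, Abcb1a and Itm2a. In KO mice hyperoxia also moved 0 of the 38 past the threshold, against 0.0120% of all genes, and DESeq2 called 0. Here 6 of the 38 were at an unadjusted p below 0.05 (Abcc9, Vtn, Ocln, Itm2a, Sox18 and Emcn), again all lower in hyperoxia, or 15.8% against 4.86% of all tested genes.

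No mouse is shared between these comparisons. All 9 genes named for WT were also lower in KO-O2 than in KO-RA, whereas 71.2% of the 2027 genes at an unadjusted p below 0.05 in WT kept their direction in KO. Over the whole list, 21 of 29 endothelial and 5 of 9 mural genes had the same direction in both genotypes, and 59.4% of all tested genes did. Without GSD494, 10 of the 38 were at an unadjusted p below 0.05 in KO mice, or 26.3% against 4.28% of all tested genes. Of these, 3 were lower (Abcc9, Ocln and Vtn) and 7 higher. The endothelial and mural medians were 0.11 and 0.16, against 0.02 and -0.06 with that mouse. In that fit 9 of 10 genes at an unadjusted p below 0.05 in WT had the same direction in KO, against 66.5% of all such genes. With GSD408 as room air, 3 of the 38 were at an unadjusted p below 0.05 in WT mice, all lower. The summed level of 6 red blood cell markers also moved in WT mice, from 279 to 343 CPM in WT-RA to 181 to 248 CPM in WT-O2, and its part in these values was not tested.

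**Figure D2:**
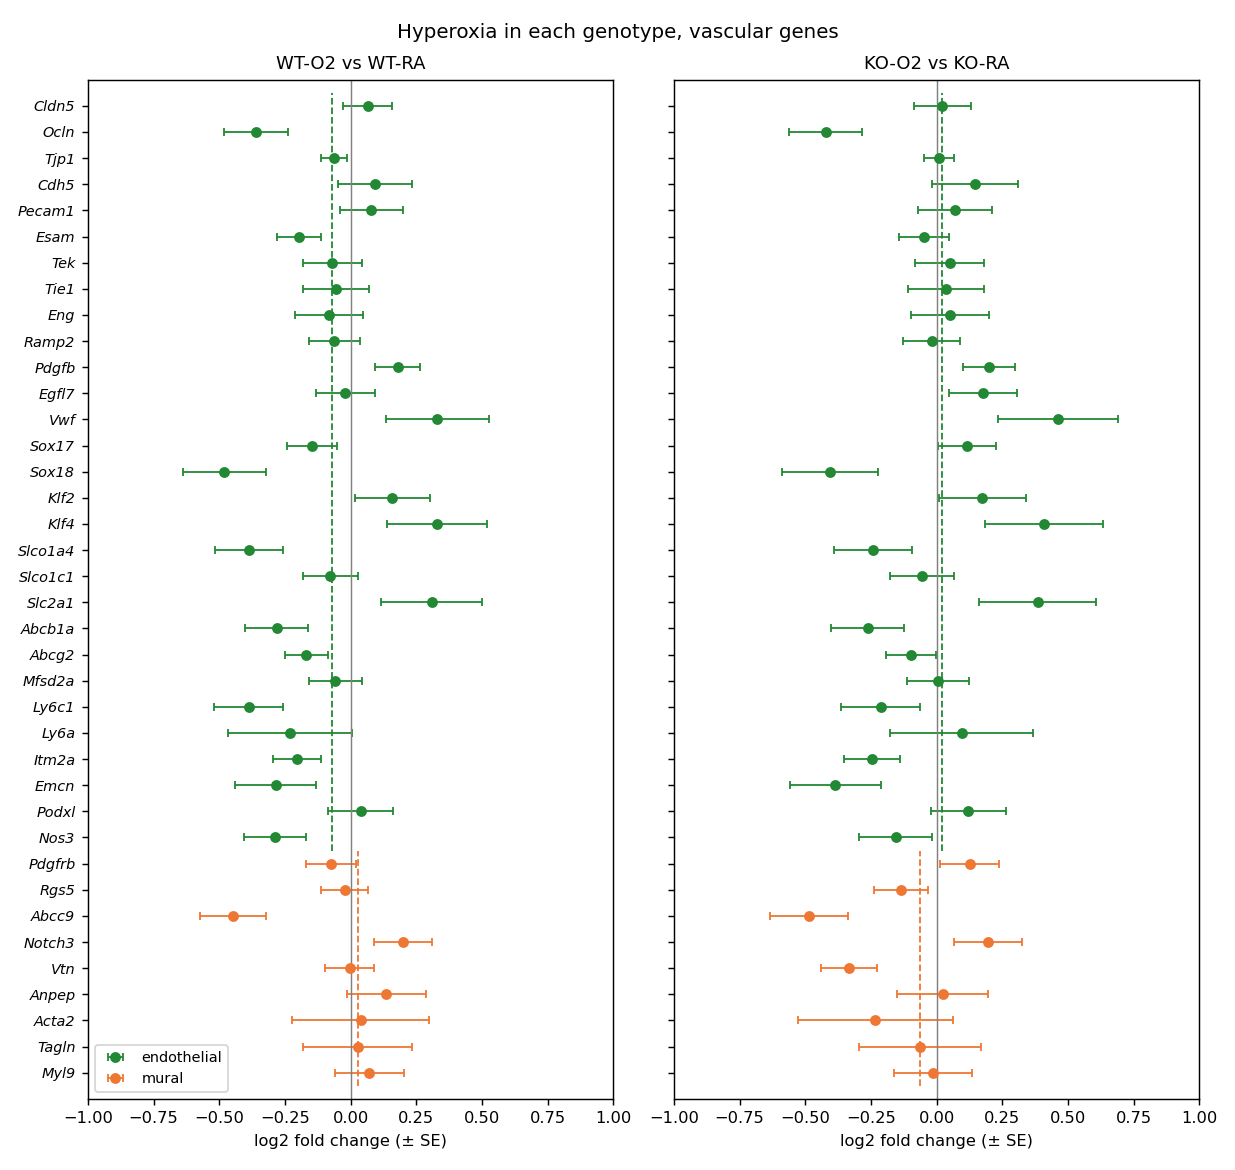
Log2 fold change with hyperoxia (horizontal axis, point and standard error) of the 29 endothelial and 9 mural genes, in WT mice (left) and KO mice (right). Dashed lines are the medians of each class, at -0.07 and 0.03 in WT and at 0.02 and -0.06 in KO, and Abcc9, Ocln and Sox18 lie to the left in both panels.

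Abcc9 encodes SUR2, the regulatory subunit of the ATP-sensitive potassium channel of pericytes. In the order of mouse number, it was at 17.0, 14.7, 16.5 and 13.8 CPM in WT-RA and at 11.5, 12.4, 10.1 and 11.4 CPM in WT-O2. In KO mice it was at 14.0, 13.6 and 11.7 CPM in KO-RA and at 9.41, 7.12 and 11.5 CPM in KO-O2. Every hyperoxic mouse was below every room air mouse of its own genotype. Exposures did not overlap for 3 of the 38 genes in WT mice, against 5.99% of all tested genes. In KO mice they did not overlap for 5 of the 38, against 11.8%. Non-overlap of exposures, here and for the genes further on, is therefore a description only. The means of Abcc9 were 15.5 ± 1.53 (SD, n = 4) and 11.4 ± 0.953 CPM (n = 4) in WT, and 13.1 ± 1.22 (n = 3) and 9.35 ± 2.20 CPM (n = 3) in KO. The log2 fold change was -0.45 ± 0.13 (SE) in WT, with q = 0.161 by edgeR and q = 0.0406 by DESeq2. In KO mice it was -0.49 ± 0.15 with q = 0.861, and -0.32 ± 0.13 without GSD494.

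Since Abcc9 was lower in both genotypes, hyperoxia was also tested as the mean of the WT and KO differences, a contrast chosen after the data were seen. Abcc9 was then the only one of the 38 genes called, where 0.337% of all genes were. It fell by 0.47 ± 0.10 on the log2 scale (q = 0.0743, edgeR). Left out singly, GSD398, GSD400, GSD401 or GSD495 did not end the call, and each of the other 10 mice did, with q up to 0.161. With GSD408 as room air q was 0.351. At an unadjusted p below 0.05 stood 16 of the 38 genes in this contrast, 11 lower and 5 higher, or 42.1% against 11.8% of all tested genes. Without GSD494 there were 14, 8 lower and 6 higher, against 9.69%.

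The sequence before the start of Abcc9, from RefSeq on build GRCm38.p6, is shown as a description only. Abcc9 was the one gene of the 38 called by edgeR in that average, a contrast chosen because of its own values, and DESeq2 called 3 of the 38 there. It is the 250 bases at chr6:142702275-142702524, minus strand, 5′ to 3′, with the letters CACCC, the core that KLF factors bind, in capitals on either strand. Of all such windows 52% hold this core at least once, so that its presence is a description only.
Abcc9: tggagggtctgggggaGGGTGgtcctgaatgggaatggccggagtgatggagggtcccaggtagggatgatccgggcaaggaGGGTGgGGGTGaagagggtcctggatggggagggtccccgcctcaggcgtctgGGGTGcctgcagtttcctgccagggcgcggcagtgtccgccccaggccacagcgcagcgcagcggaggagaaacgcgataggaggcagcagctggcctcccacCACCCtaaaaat
The window holds 5 such cores, the farthest beginning 234 bases before the start. How many of all windows hold as many was not counted. Klf2 and Klf4, the flow-responsive KLF genes of endothelium, are themselves among the 38, and their values stand further on. A link between them and Abcc9 was not tested.

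Ocln encodes occludin, a membrane protein of tight junctions. It was at 13.4, 11.2, 9.82 and 13.8 CPM in WT-RA and at 9.56, 8.85, 10.02 and 9.19 CPM in WT-O2. In KO-RA it was at 13.1, 15.2 and 16.65 CPM and in KO-O2 at 12.2, 9.39 and 11.96 CPM. The KO groups did not overlap, and in WT only GSD400 of the room air mice lay within the hyperoxic range. The log2 fold change was -0.36 ± 0.12 in WT (q = 0.237, edgeR) and -0.42 ± 0.14 in KO (q = 0.861), or -0.31 ± 0.14 in KO without GSD494. Averaged over genotypes it was -0.39 ± 0.09 with q = 0.109 by edgeR and q = 0.0121 by DESeq2, by which it was called. Cldn5, its neighbour in the junction, overlapped between exposures in both genotypes. Its log2 fold change was 0.06 in WT, with a 95% interval from -0.14 to 0.27, and 0.02 in KO, from -0.21 to 0.26, or 0.14 ± 0.10 in KO without GSD494.

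Sox18 encodes a SOXF transcription factor of endothelium. It was at 10.6, 12.6, 13.4 and 14.6 CPM in WT-RA and at 9.23, 10.001, 9.70 and 7.75 CPM in WT-O2. In KO mice it was at 13.8, 18.3 and 11.03 CPM in room air and at 10.7, 8.77 and 13.1 CPM in hyperoxia. The WT groups did not overlap and the KO groups did. The log2 fold change was -0.48 ± 0.16 in WT (q = 0.229, edgeR) and -0.41 ± 0.18 in KO (q = 0.997), or -0.27 ± 0.19 in KO without GSD494. Sox17, its relative, was at -0.15 ± 0.10 in WT and 0.11 ± 0.11 in KO, or 0.16 ± 0.12 without GSD494.

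Slco1a4, which encodes an organic anion transporter of the barrier, was at 37.9, 33.8, 24.4 and 37.3 CPM in WT-RA and at 26.7, 21.3, 30.1 and 23.9 CPM in WT-O2. In KO-RA it was at 30.6, 31.7 and 35.9 CPM and in KO-O2 at 27.2, 26.2 and 29.8 CPM. The KO groups did not overlap, and the WT groups overlapped through GSD400. Ly6c1, which encodes a surface protein of brain endothelium, was at 27.8, 26.7, 17.0 and 22.2 CPM in WT-RA and at 15.8, 16.0, 20.3 and 19.5 CPM in WT-O2. Its values were 21.9, 22.0 and 23.2 CPM in KO-RA and 19.5, 17.8 and 20.6 CPM in KO-O2. GSD400 was again the room air mouse within the hyperoxic range. In WT the log2 fold change of Slco1a4 was -0.39 ± 0.13 (q = 0.23, edgeR) and that of Ly6c1 -0.39 ± 0.13 (q = 0.237). In KO they were -0.24 and -0.21, and -0.20 and -0.16 without GSD494. With all mice neither gene was called. Without GSD400, Slco1a4 and Ly6c1 were the 2 genes of the list called in WT. That mouse is the one within the hyperoxic range for both genes, and the share of all genes called in that fit is not given. These calls therefore show only how far the WT values rest on GSD400. Slco1a4 and Ly6c1 both have close paralogs with which reads may have been shared.

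Itm2a, which encodes a membrane protein enriched in brain endothelium, was at 43.6, 43.6, 38.3 and 42.3 CPM in WT-RA and at 37.8, 38.9, 35.6 and 33.3 CPM in WT-O2. It was at 39.3, 44.2 and 52.5 CPM in KO-RA and at 41.7, 33.2 and 39.7 CPM in KO-O2. The groups overlapped in both genotypes. The log2 fold change was -0.21 ± 0.09 in WT (q = 0.385, edgeR) and -0.25 ± 0.11 in KO (q = 0.997), and -0.16 ± 0.11 in KO without GSD494.

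The remaining genes can be read by role, and for KO each value is followed by the one without GSD494, which was higher or about the same in each case. Among receptors, Tek and Tie1 of the angiopoietin pathway, Eng, a co-receptor for TGF-beta ligands, and Ramp2, a subunit of the adrenomedullin receptor, had log2 fold changes between -0.08 and -0.06 in WT. In KO they lay between -0.02 and 0.05, and between 0.08 and 0.22 without GSD494. Of the secreted factors, Pdgfb was at 0.18 ± 0.09 in WT and at 0.20 ± 0.10 (0.29 ± 0.10) in KO. Vwf, von Willebrand factor, was at 0.33 ± 0.20 in WT and at 0.46 ± 0.23 (0.63 ± 0.24) in KO. Among transporters, Abcb1a, the P-glycoprotein pump, was at -0.28 ± 0.12 in WT and at -0.26 ± 0.14 (-0.15 ± 0.14) in KO. Slc2a1 was at 0.31 ± 0.19 in WT and at 0.39 ± 0.22 (0.52 ± 0.24) in KO. Mfsd2a, the carrier of docosahexaenoic acid, was at -0.06 in WT with a 95% interval from -0.28 to 0.16. Abcg2, another efflux pump, was at -0.17 ± 0.08 in WT and at -0.10 ± 0.09 (-0.05 ± 0.10) in KO.

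The flow-responsive Klf4 was at 0.33 ± 0.19 in WT and at 0.41 ± 0.22 (0.56 ± 0.24) in KO, and Klf2 at 0.16 ± 0.14 in WT and at 0.17 ± 0.17 (0.25 ± 0.19) in KO. Nos3, endothelial nitric oxide synthase, was at -0.29 ± 0.12 in WT and at -0.16 ± 0.14 (-0.09 ± 0.15) in KO, and Emcn at -0.29 ± 0.15 in WT and at -0.39 ± 0.17 (-0.26 ± 0.18) in KO. The junction gene Cdh5 was at 0.09 ± 0.14 in WT and at 0.15 ± 0.17 (0.35 ± 0.13) in KO, and the adhesion gene Pecam1 at 0.08 ± 0.12 in WT and at 0.07 ± 0.14 (0.22 ± 0.12) in KO. Slco1c1, Tjp1, Podxl, Egfl7 and Ly6a lay between -0.23 and 0.04 in WT and between -0.06 and 0.18 in KO, or between -0.01 and 0.29 without GSD494. These genes were not called. Of the other pericyte genes, Notch3 was at 0.20 ± 0.11 in WT and at 0.19 ± 0.13 (0.31 ± 0.13) in KO. Rgs5, Pdgfrb and Anpep lay between -0.07 and 0.14 in WT and between -0.14 and 0.13 in KO, or between -0.01 and 0.22 without GSD494. Of smooth muscle genes, Acta2, Tagln and Myl9 lay between 0.03 and 0.07 in WT and between -0.23 and -0.01 in KO, or between 0.08 and 0.21 without GSD494.

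**Figure D3:**
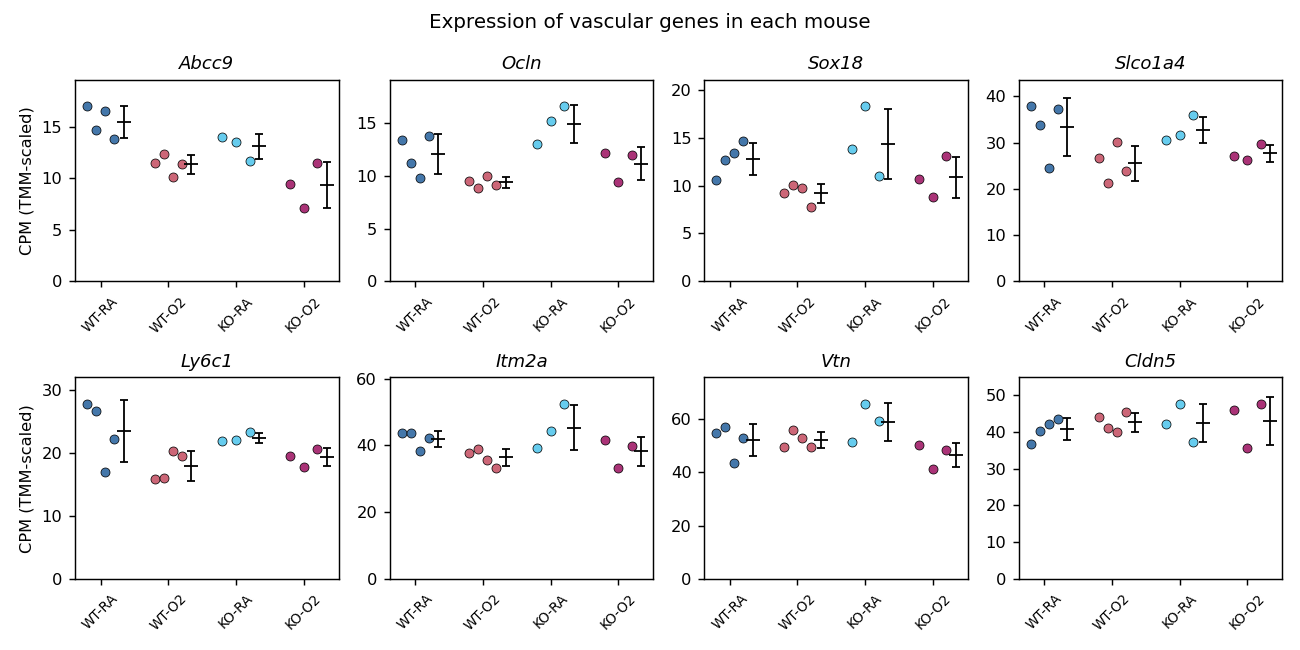
CPM of 8 genes in each mouse (points), with the mean and SD of each group beside them (black). Abcc9 shows the 4 WT-O2 mice at 10.1 to 12.4 CPM, all below the WT-RA mice, while Cldn5 overlaps across all 4 groups.

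The difference between the hyperoxia effects of the genotypes, tested as an interaction, was called for 0 of the 38 genes and for 0% of all genes by edgeR, and for 0 by DESeq2. At an unadjusted p below 0.05 there was 1 of the 38, Vtn, and 673 of all genes. Vtn was at 54.7, 57.1, 43.6 and 52.9 CPM in WT-RA and at 49.5, 55.8, 52.9 and 49.6 CPM in WT-O2. In KO-RA it was at 51.4, 65.7 and 59.1 CPM and in KO-O2 at 50.0, 41.4 and 48.3 CPM. The KO groups did not overlap and the WT groups did. The log2 fold change was 0.00 ± 0.09 in WT and -0.33 ± 0.11 in KO, and the interaction was -0.33 ± 0.14 (q = 1.0, edgeR). Without GSD494 the interaction of Vtn was -0.25 ± 0.14, no longer at an unadjusted p below 0.05, and Tie1 was the 1 gene of the 38 below it, at 0.28 ± 0.13.

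In the interaction endothelial genes were mostly positive and mural genes mostly negative. With 1 mouse left out, the median of either class could change sign, as the ranges given further on show. With all mice, 24 of 29 endothelial and 1 of 9 mural genes had a positive interaction, with medians of 0.08 and -0.09, where 50.9% of all tested genes were positive. Without GSD494, 29 of 29 endothelial and 8 of 9 mural genes were positive, with medians of 0.20 and 0.10. Pdgfrb, the PDGF receptor of pericytes, was the positive mural gene. It was at 40.1, 36.1, 33.6 and 30.8 CPM in WT-RA, 33.9, 32.3, 32.9 and 34.5 CPM in WT-O2, 27.1, 33.5 and 26.1 CPM in KO-RA, and 33.2, 27.1 and 34.4 CPM in KO-O2. Its interaction was 0.20 ± 0.15 (q = 1.0), and 0.30 ± 0.14 without GSD494. The ranges overlapped in every comparison, although 3 of 4 WT-RA mice exceeded every KO-RA mouse.

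Sox17 was at 8.87, 7.92, 7.84 and 8.43 CPM in WT-RA, 7.69, 7.78, 8.002 and 6.38 CPM in WT-O2, 7.503, 8.33 and 7.19 CPM in KO-RA, and 8.41, 7.74 and 8.78 CPM in KO-O2. Its interaction was 0.26 ± 0.15 (q = 1.0, edgeR), or 0.31 ± 0.15 without GSD494, and the groups overlapped. Esam, which encodes an adhesion molecule of endothelial junctions, was at 16.7, 18.9, 18.9 and 16.8 CPM in WT-RA, 15.9, 16.8, 15.0 and 14.6 CPM in WT-O2, 17.6, 16.8 and 16.0 CPM in KO-RA, and 17.9, 14.4 and 16.4 CPM in KO-O2. The interaction was 0.15 ± 0.13 (q = 1.0), or 0.23 ± 0.12 without GSD494, with overlap in both genotypes.

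Genotype was compared next. In room air, 2 of the 38 genes were called, the smooth muscle gene Myl9, which rose, and the pericyte gene Notch3, which fell, against 10.4% of all genes. Under hyperoxia 2 were called, Ramp2, which rose, and Notch3, which fell again, against 6.86% of all genes. The share of the 38 called was thus not above that of all genes in either exposure. DESeq2 called 4 in room air and 3 under hyperoxia, where it called 1840 and 1317 of all 16637 tested genes. Without GSD494, 5 were called in room air (Myl9, Notch3, Acta2, Tagln and Eng) against 10.1% of all genes, and 3 under hyperoxia (Ramp2, Myl9 and Tagln) against 5.03%. With GSD408 as room air, 5 were called in room air (Myl9, Notch3, Eng, Ocln and Slco1c1) against 10.9% of all genes, and 0 under hyperoxia against 4.6%, with 4 at an unadjusted p below 0.05. The comparisons do not share mice. Genotypes did not overlap for 9 of the 38 genes in room air, against 19.6% of all tested genes. Under hyperoxia they did not overlap for 1 of the 38 (Ramp2), against 19%, so that non-overlap was common among all genes. Median log2 differences in room air were -0.08 for endothelial and 0.17 for mural genes, and under hyperoxia 0.01 and -0.02, with all tested genes at -0.01 in each. In room air 13 of the 38 genes were at an unadjusted p below 0.05, or 34.2% against 23.5% of all genes, and these were 7 of 29 endothelial and 6 of 9 mural genes. Under hyperoxia there were 4, against 18.7% of all genes, and 9 without GSD494, all higher in KO.

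**Figure D4:**
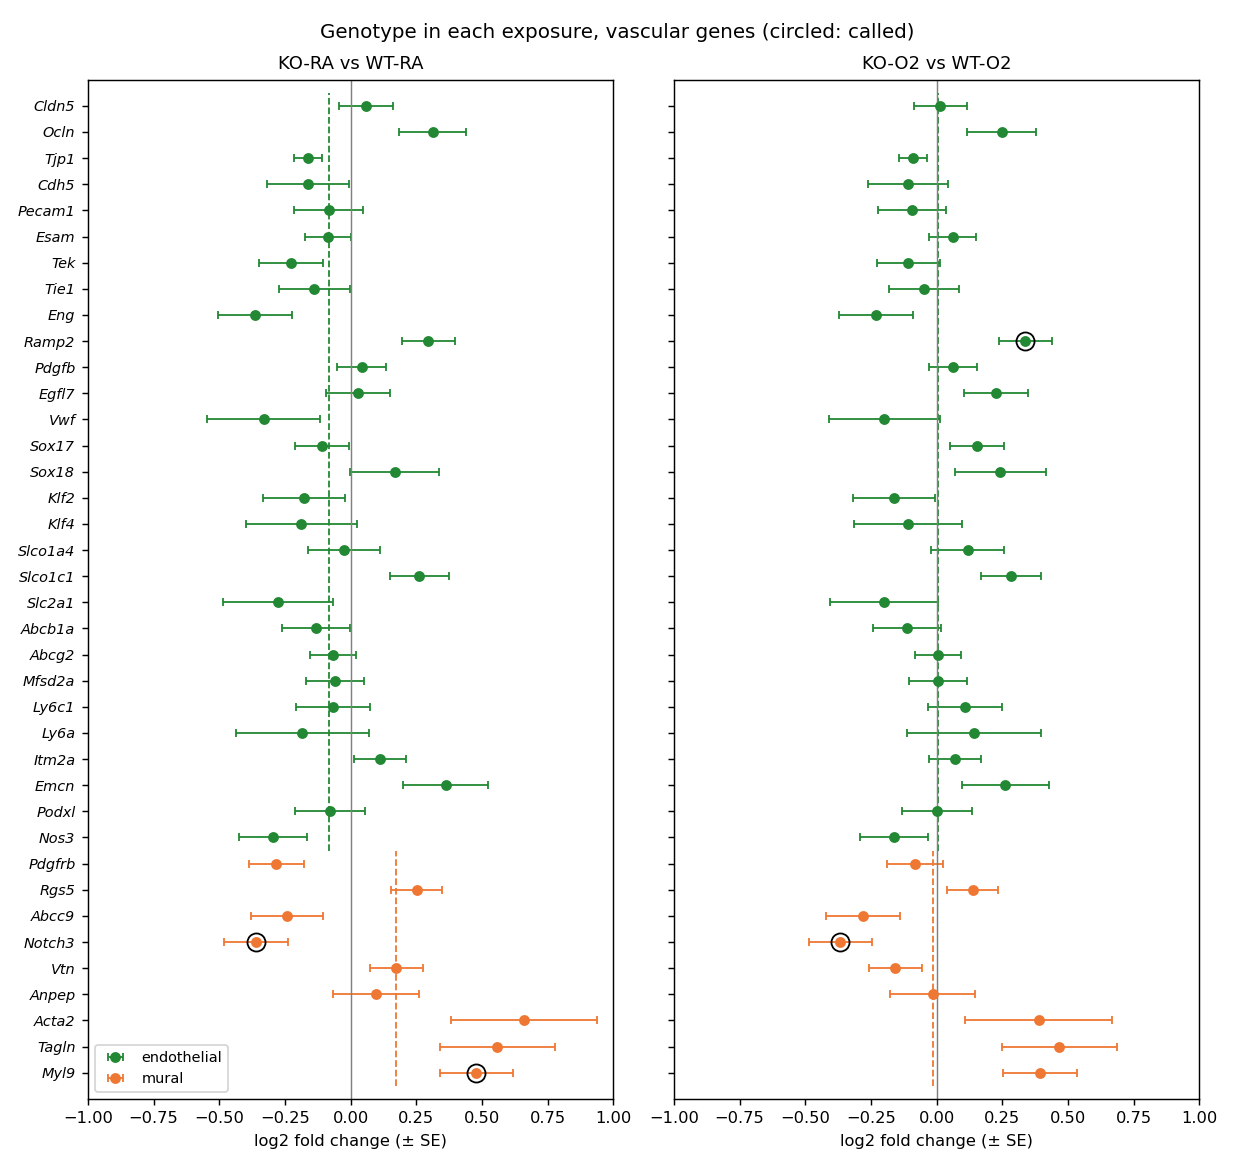
Log2 fold change of KO relative to WT (horizontal axis, point and standard error) of the 29 endothelial and 9 mural genes, in room air (left) and hyperoxia (right). Circles mark called genes and dashed lines the class medians, and Acta2, Tagln and Myl9 lie to the right in both panels.

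All 3 smooth muscle genes had higher means in KO mice in both exposures, and 1 of the 3 was called in room air and 0 under hyperoxia. Myl9 encodes the regulatory light chain of smooth muscle myosin, Tagln the actin-binding transgelin and Acta2 smooth muscle actin, all parts of the contractile apparatus. Myl9 was at 14.3, 12.05, 11.6 and 14.3 CPM in WT-RA and at 17.9, 20.0 and 16.6 CPM in KO-RA, without overlap. In WT-O2 it was at 14.5, 13.8, 13.3 and 13.3 CPM and in KO-O2 at 21.4, 13.0 and 19.7 CPM, where GSD494 fell below all WT-O2 mice. The means were 13.1 ± 1.42 (SD, n = 4) and 18.2 ± 1.75 CPM (n = 3) in room air, and 13.7 ± 0.566 (n = 4) and 18.0 ± 4.45 CPM (n = 3) in hyperoxia. Myl9 rose by 0.48 ± 0.14 on the log2 scale in room air (q = 0.0432, edgeR). Leaving out KO-RA mouse GSD489 or GSD490 ended this call, with q = 0.109 and 0.159. Under hyperoxia the difference was 0.39 ± 0.14 (q = 0.124), and without GSD494 it was 0.58 ± 0.11 (q = 0.0104) and called.

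Tagln was at 6.44, 5.32, 4.77 and 7.17 CPM in WT-RA and at 8.62, 9.90 and 7.65 CPM in KO-RA. It was at 5.64, 5.63, 6.09 and 6.77 CPM in WT-O2 and at 9.20, 4.77 and 11.1 CPM in KO-O2. In room air the groups did not overlap, and in hyperoxia GSD494 lay below all WT-O2 mice and the other KO mice above them. The log2 difference was 0.56 ± 0.22 in room air (q = 0.13, edgeR, and q = 0.0758 by DESeq2) and 0.47 ± 0.22 in hyperoxia (q = 0.269), or 0.75 ± 0.16 without GSD494 (q = 0.0227).

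Acta2 was at 16.4, 14.1, 10.4 and 12.9 CPM in WT-RA and at 16.8, 29.9 and 17.0 CPM in KO-RA. It was at 13.2, 12.2, 15.6 and 14.3 CPM in WT-O2 and at 19.0, 9.13 and 26.2 CPM in KO-O2. The room air groups did not overlap, by a narrow margin, and KO mice GSD490 and GSD495 were the highest of all. The log2 difference was 0.66 ± 0.28 in room air (q = 0.159, edgeR) and 0.39 ± 0.28 in hyperoxia (q = 0.511), or 0.71 ± 0.23 without GSD494 (q = 0.116). Reads of Acta2 may be shared with other actin genes.

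With genotype averaged over exposures, a contrast chosen after the data were seen, 4 of the 38 genes were called, all mural, against 12.0% of all genes. The share of the 38 called was thus not above that of all genes. Without GSD494, 6 were called, against 11.4% of all genes. These were 3 endothelial genes (Ocln, Ramp2 and Emcn) and 3 mural genes (Myl9, Tagln and Acta2), so that the calls were then not all mural. With all mice, Myl9 rose by 0.44 ± 0.10 (q = 0.00631), Tagln by 0.51 ± 0.16 (q = 0.0322) and Acta2 by 0.52 ± 0.20 (q = 0.0809), and Notch3 fell by 0.36 ± 0.09 (q = 0.00821, edgeR). The call of Myl9 held in each of 14 fits that left out 1 mouse. That of Tagln was lost without GSD495, with a log2 difference of 0.39 and q = 0.106. The call of Acta2 was lost in 9 of the 14 fits, and held without GSD398, GSD406, GSD489, GSD496 or GSD494. Markers of meningeal and perivascular fibroblasts, cells that lie around the same arteries, also differed. Their summed level over 10 genes was 182 to 358 CPM in WT-RA and 223 to 516 CPM in KO-RA, and 300 to 412 and 228 to 409 CPM in WT-O2 and KO-O2. Of these 10, all 10 were higher in KO-RA, 5 were at an unadjusted p below 0.05, and 2 were called by edgeR and 4 by DESeq2, against 10.4% of all genes by edgeR. The 2 were Dcn, with a rise of 1.47 ± 0.32 and Slc22a6, with a rise of 1.01 ± 0.30. Under hyperoxia 0 were called by edgeR and by DESeq2, and 0 were at an unadjusted p below 0.05. Their part in the smooth muscle values was not tested.

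Promoter windows of Myl9 and Acta2 are shown as a description only. These genes were called in that average, a contrast chosen after the data were seen. They are known targets of serum response factor, which binds the CArG box, and its part in their values was not tested. Both windows are the 250 bases before the RefSeq start on GRCm38.p6, 5′ to 3′, at chr2:156775214-156775463, plus strand, and chr19:34255374-34255623, minus strand. Only exact matches to the CArG pattern CCWWWWWWGG, where W is A or T, were counted and are in capitals.
Myl9: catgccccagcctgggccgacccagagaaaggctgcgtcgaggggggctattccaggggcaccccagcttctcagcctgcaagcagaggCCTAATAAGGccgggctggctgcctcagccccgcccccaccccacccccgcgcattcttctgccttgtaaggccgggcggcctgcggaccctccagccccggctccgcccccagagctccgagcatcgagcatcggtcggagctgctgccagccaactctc
Acta2: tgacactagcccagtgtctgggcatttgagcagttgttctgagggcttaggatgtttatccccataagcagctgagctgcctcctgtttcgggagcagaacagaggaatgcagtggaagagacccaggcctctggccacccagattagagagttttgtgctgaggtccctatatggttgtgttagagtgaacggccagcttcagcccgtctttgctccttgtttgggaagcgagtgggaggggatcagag
Myl9 has 1 exact match, which begins 161 bases before the start, and Acta2 has no exact match within these letters. The Acta2 window does hold ccctatatgg and ccttgtttgg, and the Myl9 window also holds ccttgtaagg. Each of these differs from the pattern in 1 letter and was not counted. Over all 32851 such windows 1.47% hold a match, and among the 25 of the 38 genes with a window Myl9 was the only one. Tagln has no window in the table used. These 25 genes have 31 windows. Of the 31, 28 hold GGAA, the ETS core, against 93.4% of all windows, 21 hold CACCC against 52%, 20 hold GGGAC, an NF-kappaB core, against 44.8%, and 5 hold ACAAT, a SOX core, against 27.7%.

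Notch3 encodes the Notch receptor of pericytes and smooth muscle. It was at 28.9, 26.3, 24.9 and 25.4 CPM in WT-RA and at 20.4, 22.9 and 18.4 CPM in KO-RA. Under hyperoxia it was at 30.4, 31.0, 26.5 and 33.4 CPM in WT-O2 and at 22.2, 19.5 and 28.9 CPM in KO-O2. Room air groups did not overlap, while under hyperoxia GSD495 of the KO mice lay within the WT range. Notch3 fell by 0.36 ± 0.12 in room air (q = 0.0782) and by 0.37 ± 0.12 under hyperoxia (q = 0.0962, edgeR). The room air call was lost without WT-RA mice GSD398, GSD399 or GSD401 or KO-RA mice GSD489 or GSD496, with q up to 0.299. The hyperoxia call held in only 4 of 14 fits that left out 1 mouse, those without GSD398, GSD400, GSD406 or GSD495, and without GSD494 the difference was -0.25 ± 0.12 (q = 0.342). That call was also lost with GSD408 as room air (q = 0.291). In the average over exposures it was lost without GSD496 or GSD494, where the fold change was under the threshold.

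Notch3 thus fell while Myl9, a smooth muscle gene, rose. Since Notch3 is listed with pericytes but is also made in smooth muscle, this does not separate the cell types. The pericyte genes as a group did not move one way. In room air Pdgfrb was at -0.28 ± 0.11 (q = 0.11, edgeR) and Abcc9 at -0.24 ± 0.14, whereas Rgs5 was at 0.25 ± 0.10 (q = 0.121), Vtn at 0.17 ± 0.10 and Anpep, the aminopeptidase CD13, at 0.10 ± 0.16. Rgs5 was at 185 to 206.5 CPM in WT-RA and at 232 to 237 CPM in KO-RA, without overlap. Under hyperoxia the same genes, in that order, were at -0.08 ± 0.10, -0.28 ± 0.14, 0.14 ± 0.10, -0.16 ± 0.10 and -0.02 ± 0.16, and without GSD494 they were at 0.02, -0.12, 0.26, -0.08 and 0.13.

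Ramp2 was at 31.9, 30.4, 24.5 and 28.01 CPM in WT-RA and at 38.5, 35.5 and 31.7 CPM in KO-RA. It was at 27.4, 28.1, 28.3 and 26.2 CPM in WT-O2 and at 34.7, 30.0 and 39.7 CPM in KO-O2. All KO-O2 mice lay above all WT-O2 mice, and in room air GSD398 just exceeded the lowest KO mouse. It rose by 0.34 ± 0.10 under hyperoxia (q = 0.0697, edgeR), a call that was lost without any 1 of the 4 WT-O2 mice or without GSD491 or GSD495, with q up to 0.32, and with GSD408 as room air (q = 0.158). Without GSD494 it was 0.43 ± 0.10 (q = 0.036). In room air the difference was 0.30 ± 0.10 (q = 0.0838), under the fold change threshold. In the average over exposures it was 0.32 ± 0.07 (q = 0.0065), also just under that threshold, and Ramp2 was called there by DESeq2.

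Tjp1, the gene of ZO-1, was at 152, 145, 142 and 135 CPM in WT-RA and at 131, 126 and 127 CPM in KO-RA. It was at 141.2, 139.5, 139.5 and 128.9 CPM in WT-O2 and at 129, 128 and 130 CPM in KO-O2. Room air groups did not overlap. The log2 difference was -0.16 ± 0.05 in room air (q = 0.0653, edgeR), below the fold threshold, and -0.09 ± 0.05 under hyperoxia (q = 0.392). Eng was at -0.36 ± 0.14 in room air (q = 0.123 by edgeR and 0.086 by DESeq2, by which it was called), at 46.5 to 52.2 CPM in WT-RA and 34.5 to 44.0 CPM in KO-RA. By edgeR it was called with GSD408 as room air (-0.40 ± 0.12, q = 0.049).

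Slco1c1 was at 84.9, 81.4, 88.5 and 84.1 CPM in WT-RA and at 97.8, 99.0 and 108 CPM in KO-RA. It was at 103, 73.3, 78.0 and 67.3 CPM in WT-O2 and at 110, 91.0 and 91.8 CPM in KO-O2. The room air groups did not overlap, and in hyperoxia GSD404 of the WT mice lay among the KO mice. The log2 difference was 0.26 ± 0.11 in room air (q = 0.174, edgeR) and 0.28 ± 0.11 under hyperoxia (q = 0.181), or 0.33 ± 0.13 there without GSD494. With GSD408 as room air it was called in room air (0.32 ± 0.11, q = 0.0718). Astrocytes also make this transporter. The summed level of 8 astrocyte markers was 1719 to 2135 CPM in WT mice and 2281 to 2511 CPM in KO mice, without overlap, and its part in the Slco1c1 values was not tested.

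**Figure D5:**
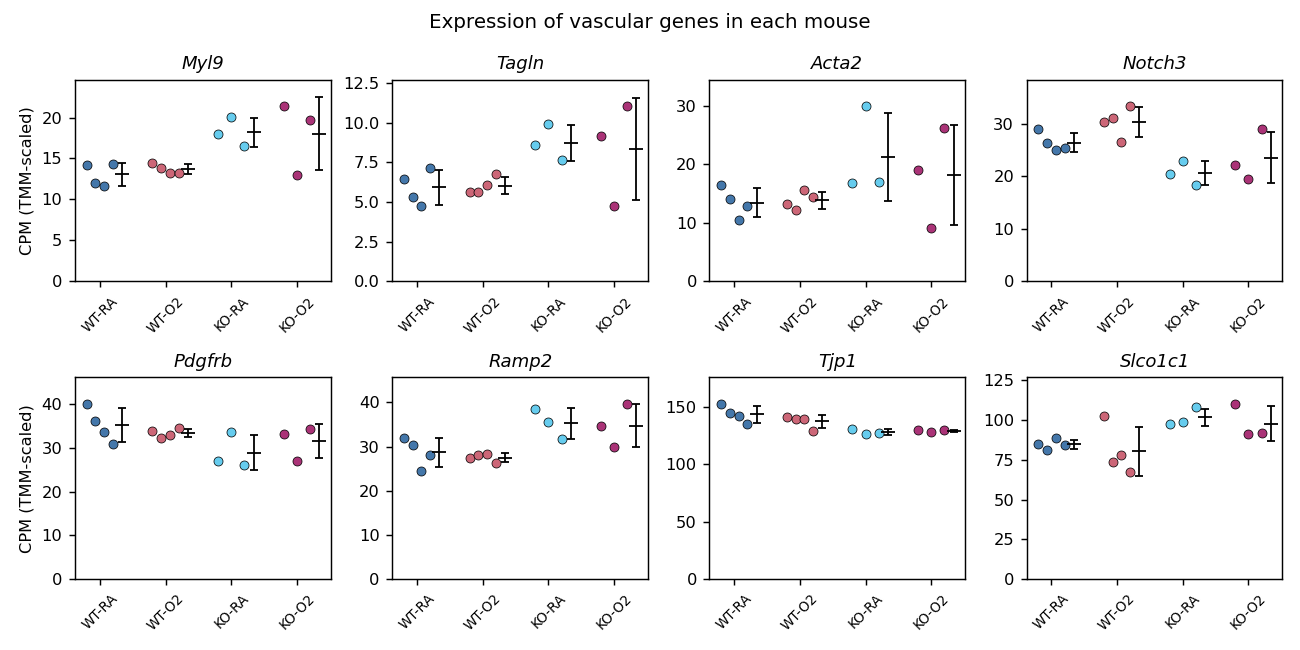
CPM of 8 genes in each mouse (points), with the mean and SD of each group beside them (black). In room air the KO points of Myl9, Tagln and Acta2 all lie above the WT points, and the low KO-O2 point in these panels is mouse GSD494.

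The core endothelial genes were called in neither exposure. In room air the log2 difference of Cldn5 was 0.06 with a 95% interval from -0.16 to 0.28, that of Pecam1 -0.08 from -0.36 to 0.19, and that of Cdh5 -0.16 from -0.49 to 0.17. Slc2a1 was at -0.28 ± 0.21 and Mfsd2a at -0.06 ± 0.11. The upper bound for each of Cldn5, Pecam1 and Cdh5 lay below the fitted rise of Myl9. That rise has an error of its own, and these genes were not tested against Myl9. Nos3 (-0.30 ± 0.13), Ocln (0.31 ± 0.13) and Emcn (0.36 ± 0.16), the gene of the sialomucin endomucin, had an unadjusted p below 0.05 in room air and q between 0.152 and 0.188 by edgeR, and with GSD408 as room air Ocln was called (0.38 ± 0.14, q = 0.0943). Podxl, Egfl7, Ly6a and Abcg2 lay between -0.18 and 0.03 in room air, and between 0.00 and 0.23 under hyperoxia, or between 0.05 and 0.32 without GSD494. The other 13 endothelial genes, those of the Tie receptors, SOX and KLF factors, Vwf, Pdgfb, Abcb1a, Slco1a4, Ly6c1, Itm2a and Esam, lay between -0.33 and 0.17 in room air and between -0.20 and 0.24 under hyperoxia, or between -0.09 and 0.37 without GSD494.

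Beyond the 38 genes, 107 other vascular genes in 9 lists were looked up, of which 105 were tested. Hyperoxia in WT called 1 of them, Ctla2a, which rose by 0.45 ± 0.10 (q = 0.0878, edgeR), against 0.643% of all genes. DESeq2 called 5, where it called 310 of all 16637 tested genes. At an unadjusted p below 0.05 were 21 of the 105, or 20% against 12.2% of all genes. In KO 0 were called by edgeR and by DESeq2, against 0.0120% of all genes, and 11 were at an unadjusted p below 0.05 where all genes were at 4.86%. Averaged over genotypes, 3 were called by edgeR and 7 by DESeq2, against 0.337% of all genes by edgeR, 2 of the 3 being among 6 tested genes of activated endothelium. Icam1, the leukocyte adhesion molecule, rose by 0.52 ± 0.11 (q = 0.0692), Ctla2a rose by 0.39 ± 0.08 (q = 0.0692), and Slc19a3, a thiamine transporter gene, fell by 0.62 ± 0.13 (q = 0.0817, edgeR). With GSD408 as room air, only 1 of all 16637 tested genes was called in this averaged contrast, so that at most 1 of these 3 calls held.

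Genotype called 11 of the 105 in room air, 4 higher and 7 lower, a share near the 10.4% of all genes. Of 10 other tight junction genes, Cldn12 fell by 0.79 ± 0.06 and Jam3 by 0.71 ± 0.17. Among 14 genes of the Wnt and Norrin pathway, which induces and keeps the barrier, Lef1, a transcription factor of Wnt signalling, fell by 1.21 ± 0.43 and Ndp, the gene of Norrin, rose by 0.46 ± 0.14. In the 12 other pericyte genes Mcam fell by 0.78 ± 0.22 and Slc6a12 rose by 1.29 ± 0.43. Pln, the gene of phospholamban, fell by 1.64 ± 0.35 among 12 other smooth muscle genes, against the direction of Myl9. Vcam1, a leukocyte adhesion molecule, rose by 0.34 ± 0.07 and Ackr1, a chemokine receptor of venules, fell by 0.43 ± 0.11, and Palmd of the other pan-endothelial genes rose by 0.44 ± 0.09. Under hyperoxia 6 were called, against 6.86% of all genes, 1 higher and 5 lower. Cldn12 fell by 0.55 ± 0.06, Pln by 1.23 ± 0.38, the arterial ligand gene Efnb2 by 0.55 ± 0.14, the venous factor gene Nr2f2 by 1.19 ± 0.25 and Ebf1 by 1.01 ± 0.27, while Flna rose by 0.49 ± 0.12. Lef1, Nr2f2 and Ebf1 are also expressed in neurons of single brain regions, and 10 markers of thalamic neurons summed to 194 to 1085 CPM in WT mice and 229 to 251 CPM in KO mice. Their part in these values was not tested.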

How the data were processed

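The authors deposited 1 table of estimated counts per gene, made per the study's methods with Kallisto on GRCm39 and summed to genes with tximport. Versions, trimming, strand handling and count scaling are not given in the sources used here. Counts were rounded, filtered by filterByExpr, scaled by TMM and fitted with edgeR 4.0.16 (R 4.3.3) by its quasi-likelihood F-test in all 14 libraries, with 1 coefficient per group and Benjamini-Hochberg adjustment over 16637 genes. The fold, p and q thresholds are those of the study. The 2 averaged contrasts were added after the data were seen. Values were read with a prior count of 2 for log2 CPM, and exon lengths came from GENCODE M21. Promoters came from RefSeq.

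Genes were matched by symbol. The members and the lists were chosen with earlier results of these data known. Members called, or among the 4 smallest p of a comparison, are given per mouse, as are Tagln and Acta2, called only in an averaged contrast. Called genes of other vascular lists are named, except 1 that is not reported here. Simulated counts with known changes were used to test the fit. Alternatives were DESeq2 1.42.0, other scalings, filters and thresholds, only the groups compared, GSD408 as room air, and each mouse left out. Replicate numbers follow accession order and pair nothing, and separate mice are the replicates.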

Additional observations from a re-analysis of the deposited data

Results flagged for a closer look

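Of 76 groups of 4 mice tested (each gene in each WT group), 2 held a mouse far from the other 3, where chance gives about 1 in 20. Both concern WT-O2 mouse GSD408, the mouse whose records give both exposures. Its Tjp1 value of 128.9 CPM lay below the other 3, the nearest at 139.5 and the farthest at 141.2 CPM. Its Eng value of 55.99 CPM lay above the other 3, the nearest at 44.33 and the farthest at 42.94 CPM.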

How the results depend on the processing

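No paired analysis was possible because replicate numbers follow accession order. No called gene turned in direction, while some class medians changed sign when 1 mouse was left out. Of 180 refits of genes called, 129 kept the call and 51 lost it, and 274 of 280 refits of class medians moved by less than the spread between mice. DESeq2 called 1 member for hyperoxia in WT, 4 for genotype in room air and 3 for averaged hyperoxia. Of all 16637 tested genes it called 310, 1840 and 134 in these comparisons. For genotype under hyperoxia 1 member was called with DESeq2 size factors (Ramp2), library-size scaling (Notch3), no filter or only the groups compared (Ramp2 in both). Fitting only the groups compared called 4 members in room air. Averaged hyperoxia called 2 with no filter or with at least 10 counts in every library (Abcc9 and Ocln). With GSD408 as room air the counts were 5 for genotype in room air, 0 for genotype under hyperoxia and 0 for averaged hyperoxia. Of all genes, 10.9%, 4.6% and 0.00601% were called there. Counts under the other settings stand without the share of all genes, and show only whether calls of the members held. A fold change of 1.5 left 0 in each of the genotype comparisons and in both averages, and q below 0.05 left 1 in room air (Myl9), 0 under hyperoxia and 0 for averaged hyperoxia.

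With each mouse left out in turn, members called ranged from 0 to 2 for hyperoxia in WT (2 without GSD400), 0 to 5 for genotype in room air (0 without GSD489, 5 without GSD494), 0 to 3 for genotype under hyperoxia (0 without GSD405, GSD408 or GSD491, 3 without GSD400 or GSD494), 0 to 4 for averaged hyperoxia (4 without GSD400) and 3 to 6 for averaged genotype. The share of all genes called also moved. For genotype under hyperoxia it was 6.86% with all mice and 5.03% without GSD494. These ranges therefore show only how calls depend on single mice. Medians moved most without GSD495 or GSD494. For hyperoxia in KO they ranged from -0.091 to 0.108 for endothelial and from -0.242 to 0.165 for mural genes, for genotype under hyperoxia from -0.065 to 0.141 for endothelial genes, and for the interaction from -0.035 to 0.199 and from -0.217 to 0.104. Across all genes, hyperoxia in WT called 107 by edgeR, 310 by DESeq2, 20 with only the groups compared and 6 with GSD408 as room air. Depth and 3 or 4 mice a group limit what small differences could be called.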
